A study of Mus musculus with 960 samples.

Results

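Serpins are a family of protease inhibitors, and the Serpin genes described here are protein-coding genes of the GENCODE M1 annotation of the mouse genome (build mm9) whose symbol starts with Serpin. The 59 genes described stand among 22350 protein-coding genes. They were set against 1 list of accessible regions from a mouse breast tumour, which holds 50000 windows of 500 bp, each centred on a summit, the position of strongest local signal within a called peak. A window was assigned to a Serpin gene if it overlapped the gene or lay within 1 kb of a start site, the first base of any annotated transcript. By this rule 19 windows from 16 called peaks belonged to 12 of these Serpin genes, and 47 Serpin genes had none.

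The cells came from a mammary tumour of an MMTV-PyMT mouse, in which a mammary tumour virus promoter drives the polyoma middle T oncogene in the mammary epithelium. Tn5 transposase had tagged the accessible DNA of fixed, permeabilized cells (ATAC), which were then sorted 1 to a well; on 8 plates of 96 wells antibodies marked EpCam, found on epithelial cells, and HIF1a, the hypoxia-inducible factor subunit that oxygen controls, and on 2 plates of 96 wells EpCam and CD45, found on leukocytes. Per the study's methods the mice were 3 months old at dissection; the number of animals is not given in the sources used here, and HIF1a levels per well are not in the labels. Because summits were called on pooled cells, the list is 1 sample without replicates, no stain or well could be compared with another, and the read depth behind each window is unknown.

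The pool carried windows at the start sites of 6 of 6 luminal epithelial marker genes, among them Epcam and Krt8. None of 5 basal and keratinocyte markers, none of 6 blood-derived markers and none of 3 endothelial markers had one, although Trp63 held 5 windows elsewhere in the gene, Pecam1 held 5, and Csf1r and Kdr held 1 each. Markers that went against their list were Ahsg of 7 hepatocyte genes, Pdgfra of 5 fibroblast genes and Snap25 of 3 neuronal genes. Away from the start, Syt1 held 2 windows and Rbfox3 held 3, so all 3 neuronal markers had a window, and Apoa1 of the hepatocyte list held 1. Over all protein-coding genes the share with a start window was 52.9%, and 18.0% over those with a CpG-poor start, as defined further on. No basal, blood-derived or hepatocyte marker had a CpG-rich start, against 1 luminal marker (Cdh1), 1 endothelial (Kdr), 1 fibroblast (Pdgfra) and 1 neuronal (Rbfox3). Of all genes with a CpG-rich start 83.0% had a start window. Lists this short leave wide intervals. The exact 95% upper limits were 52.2% for the basal, 45.9% for the blood-derived and 70.8% for the endothelial list. Absence from the list does not show that a site was closed, since a region with weaker signal than the kept windows would also be missing.

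A serpin traps its target protease by presenting a reactive loop as bait, and once the loop is cut the serpin folds over and holds the protease in a distorted, inactive complex. Secreted serpins control blood clotting, clot lysis, complement and inflammation, and many of them are made in the liver. Clade B serpins stay mostly inside the cell and guard it against stray granzymes and cathepsins, and several of them are abundant in skin and other squamous epithelia. A few members inhibit no protease and act as hormone carriers or as a chaperone instead.

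Sequences are shown for the start regions on which the results turn, with lower case for the reference sequence of mm9 and capitals for exact matches to the searched motifs listed further on. Each runs 5′ to 3′ on the strand of its gene, holds no exon sequence and ends just before a start site. The rule for printing took the Serpin genes with the most windows at a start, with ties broken by symbol, and also clustered genes. Serpinb9 and Serpinf1 had 1 start window each, as had Serpinh1 and Serpini1, so they do not rank above these. Serpinb5 (chr1:108757600-108757749, plus strand), Serpinb6a (chr13:34094664-34094742, minus strand) and Serpinb8 (chr1:109486433-109486582, plus strand) are shown before their outermost start. Serpinb9 (chr13:33096274-33096409, plus strand) and Serpinf1 (chr11:75228698-75228847, minus strand) are shown before an inner start, within the gene. Their lengths range from 79 to 150 bases, and all of these bases lie inside a window.
Serpinb5: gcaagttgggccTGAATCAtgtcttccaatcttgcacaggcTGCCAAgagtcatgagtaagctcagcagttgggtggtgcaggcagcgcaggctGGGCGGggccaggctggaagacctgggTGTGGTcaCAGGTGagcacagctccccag
Serpinb6a: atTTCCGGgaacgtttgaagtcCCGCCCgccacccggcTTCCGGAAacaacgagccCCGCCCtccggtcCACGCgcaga
Serpinb8: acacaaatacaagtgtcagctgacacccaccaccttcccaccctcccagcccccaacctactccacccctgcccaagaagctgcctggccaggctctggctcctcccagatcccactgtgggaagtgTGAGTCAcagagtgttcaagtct
Serpinb9: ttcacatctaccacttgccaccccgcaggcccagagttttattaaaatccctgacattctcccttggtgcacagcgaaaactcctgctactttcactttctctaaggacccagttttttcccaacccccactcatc
Serpinf1: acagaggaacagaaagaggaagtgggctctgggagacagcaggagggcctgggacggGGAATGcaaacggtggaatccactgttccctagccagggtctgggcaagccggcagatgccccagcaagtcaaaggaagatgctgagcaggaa

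A further set of 4 was chosen after the values were seen, to set a collagen chaperone gene with a window beside genes without one. Serpinh1 (chr7:106501741-106501890, minus strand) had a window at this position. Serpinb2 (chr1:109407850-109407999, plus strand), Serpina1a (chr12:105104138-105104287, minus strand) and Serpina3n (chr12:105644789-105644938, plus strand) had no window in or near the gene. The 150 bases shown of each of these 3 hold 0 CpG. Of the stretches with a window, Serpinh1 holds 4, the shorter Serpinb6a stretch 11, Serpinf1 3, Serpinb5 and Serpinb9 2 each and Serpinb8 0.
Serpinh1: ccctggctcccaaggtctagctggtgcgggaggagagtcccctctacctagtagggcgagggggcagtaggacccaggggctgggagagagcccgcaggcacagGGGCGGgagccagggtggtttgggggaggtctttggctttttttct
Serpinb2: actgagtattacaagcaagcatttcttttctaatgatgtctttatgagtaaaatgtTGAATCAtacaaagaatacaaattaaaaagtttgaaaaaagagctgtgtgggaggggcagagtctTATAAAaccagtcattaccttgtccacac
Serpina1a: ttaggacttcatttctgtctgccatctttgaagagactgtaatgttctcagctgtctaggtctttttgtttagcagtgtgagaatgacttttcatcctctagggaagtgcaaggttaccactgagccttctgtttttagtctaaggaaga
Serpina3n: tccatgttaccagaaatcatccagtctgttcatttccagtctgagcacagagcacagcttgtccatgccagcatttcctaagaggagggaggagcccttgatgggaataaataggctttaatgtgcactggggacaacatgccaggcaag

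Windows at start sites were found for 7 of the 59 Serpin genes (11.9%, exact 95% interval 4.91% to 22.9%). Among all protein-coding genes the share was 52.9%. With windows anywhere in the gene counted as well, 12 Serpin genes had at least 1 (20.3%, exact 95% interval 11% to 32.8%), against 58.5% of all genes. These intervals cover counting error only, and tandem Serpin genes share ancestry and neighbourhood and are not independent draws. The median number of windows per gene was 0 for the Serpin genes and 1 for all genes, and the mean was 0.322 against 1.69. Serpin genes were somewhat shorter, with a median length of 11.2 kb against 15.4 kb, and the mean number of windows per 10 kb of gene was 0.169 against 1.01. With all gene lengths added up, it was 0.165 against 0.344, a smaller gap. No Serpin gene held more than 4 windows.

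**Figure D1:**
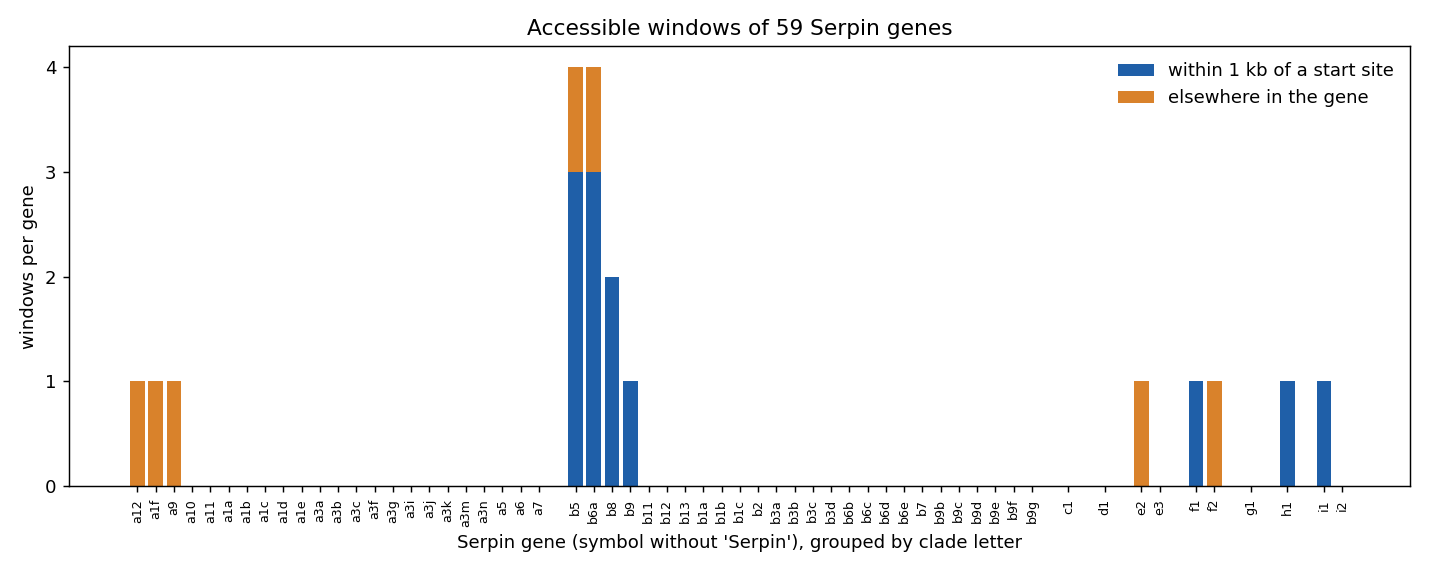
Number of windows of each of the 59 Serpin genes, grouped by clade letter, windows at a start (1 kb or nearer) in blue and windows elsewhere in the gene in orange. Bars stand for 12 genes, with Serpinb5 and Serpinb6a highest at 4 windows each, and the 3 clade A genes with a bar have 1 orange window each.

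The intracellular clade B, the largest with 26 genes, had windows at the starts of 4 of them (15.4%, exact 95% interval 4.36% to 34.9%). The share over all protein-coding genes was 52.9%, and 18.0% over those with a CpG-poor start, as defined further on. Only 1 of the 26 clade B genes had a CpG-rich start, and the interval includes the 18.0%. Serpinb5 encodes maspin, a serpin of mammary and other epithelial cells that does not act as a classical protease inhibitor. It had 4 windows, of which 2 from the same called peak flanked its outermost start, with summits 0.091 kb upstream (chr1:108757409-108757908) and 0.322 kb downstream of it (chr1:108757822-108758321). The next window lay at an inner start (chr1:108766478-108766977, summit 0.083 kb upstream) and held 0 CpG, and the last lay in an intron 5.25 kb from the nearest start (chr1:108771811-108772310). Together they lie over the first 14.3 kb of the gene, and 1 more window lay just past its end (chr1:108780257-108780756), outside the assignment rule.

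Serpinb8 encodes an inhibitor of the proprotein convertase furin. Its 2 windows came from 1 called peak, and one of them had its summit 0.002 kb upstream of the outermost start (chr1:109486331-109486830), the smallest distance of all Serpin windows. The other summit lay 0.292 kb downstream of that start, in an intron (chr1:109486625-109487124). Serpinb9 encodes an inhibitor of granzyme B, which killer lymphocytes deliver into their targets. Its single window had its summit 0.114 kb downstream of an inner start (chr13:33096274-33096773) and 1.41 kb from the outermost one.

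Serpinb6a encodes an intracellular inhibitor of cathepsin G and related proteases. All 4 of its windows also lay within 1 kb of a start site of another gene. A pair of windows from 1 called peak, at chr13:34093961-34094460 and chr13:34094342-34094841, had summits 0.398 kb and 0.017 kb downstream of a Serpinb6a start, and their distances to a start of Ripk1, a death receptor signalling kinase, were 0.021 kb and 0.151 kb. The window at chr13:34027418-34027917 had its summit 0.049 kb downstream of an inner start of Serpinb6a and 0.021 kb from a start of 1110046J04Rik. The intronic window at chr13:34056308-34056807 lay 28.5 kb from any Serpinb6a start, and its summit was 0.03 kb from a start of Nqo2, a quinone reductase gene. Which gene such a window serves cannot be told apart from positions.

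Among the secreted serpins, Serpinf1 encodes pigment epithelium-derived factor, a secreted antiangiogenic protein that inhibits no protease. Its window (chr11:75228631-75229130) lay in an intron, 0.184 kb upstream of an inner start and 7.32 kb from the outermost start. It was therefore no longer counted when the outermost start or the starts of protein-coding transcripts were used. Serpinh1 encodes HSP47, the collagen chaperone of the endoplasmic reticulum. Its single window (chr7:106501438-106501937) had its summit 0.052 kb downstream of its only annotated start, and 14 windows lay within 50 kb of the gene, more than for any other Serpin gene.

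Serpini1 encodes neuroserpin, an inhibitor of tPA made mainly by neurons. Its window (chr3:75360016-75360515) had its summit 1.2 kb upstream of the start, with the window's edge inside the 1 kb reach. The same summit lay 0.415 kb from a start of Pdcd10, a neighbouring gene of the cerebral cavernous malformation pathway, and the gene body of Serpini1 held no window. Over the 12 windows at Serpin starts the distance from summit to start ranged from 0.002 to 1.2 kb with a median of 0.102 kb, and 10 of them lay within 0.3 kb.

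**Figure D2:**
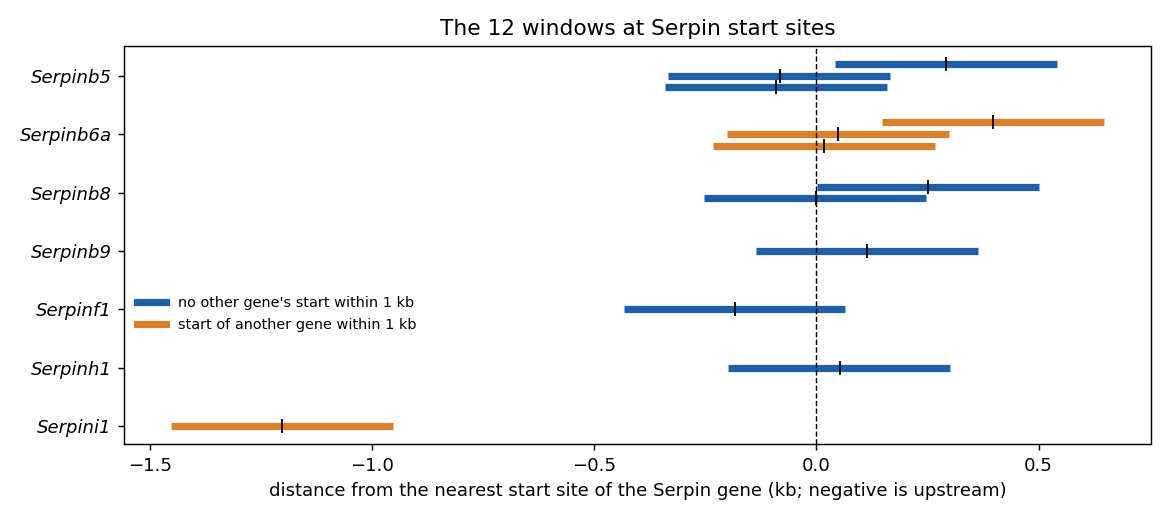
The 12 windows at start sites of 7 Serpin genes (bars of 500 bp, with a tick at the summit), as distance in kb from the nearest start of that gene, negative upstream. Orange windows, those of Serpinb6a and Serpini1, also lie within 1 kb of a start of another gene, and the Serpini1 window at 1.2 kb upstream lies apart from the rest.

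A group of 5 Serpin genes had a window in the gene but none at a start. Serpine2, which encodes protease nexin-1, an inhibitor of thrombin and uPA at the cell surface, had 1 in an intron 35.4 kb from its start (chr1:79819612-79820111). Serpinf2, which encodes the plasmin inhibitor alpha 2-antiplasmin, was reached by 48 bases of a window that otherwise lay past its end (chr11:75244782-75245281). In clade A, Serpina12, which encodes the adipose tissue serpin vaspin, had an intronic window (chr12:105279604-105280103), and so had Serpina9, a serpin of germinal centre B cells (chr12:105240873-105241372). Serpina1f, a relative of alpha 1-antitrypsin, had a window on a coding exon 2.77 kb from a start (chr12:104929857-104930356), the only one of the 19 with its summit in coding sequence. Of the other summits 10 lay in introns, 4 in noncoding exon sequence and 4 outside the gene.

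Of the 47 Serpin genes without a window, 20 belong to clade A. They were Serpina10, which inhibits clotting factor Xa with protein Z, the hormone carriers Serpina6 and Serpina7 for corticosteroids and thyroxine, the alpha 1-antitrypsin genes Serpina1a, Serpina1b, Serpina1c, Serpina1d and Serpina1e, Serpina11, the protein C inhibitor gene Serpina5, and the antichymotrypsin-related genes Serpina3a, Serpina3b, Serpina3c, Serpina3f, Serpina3g, Serpina3i, Serpina3j, Serpina3k, Serpina3m and Serpina3n. The clotting inhibitor genes Serpinc1 (antithrombin) and Serpind1 (heparin cofactor II), the complement inhibitor gene Serping1, Serpine3 and the pancreatic serpin gene Serpini2 had none either. Serping1 nonetheless had 5 windows within 50 kb, with the nearest summit 22.8 kb from its start.

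In clade B 22 genes had no window. On chromosome 1 these were Serpinb12, Serpinb13, the squamous cell carcinoma antigen genes Serpinb3a, Serpinb3b, Serpinb3c and Serpinb3d, Serpinb11, the megsin gene Serpinb7 and Serpinb2, which encodes plasminogen activator inhibitor 2. On chromosome 13 they were the leukocyte elastase inhibitor genes Serpinb1a, Serpinb1b and Serpinb1c, the Serpinb9 relatives Serpinb9b, Serpinb9c, Serpinb9d, Serpinb9e, Serpinb9f and Serpinb9g, and the Serpinb6a relatives Serpinb6b, Serpinb6c, Serpinb6d and Serpinb6e. Within each of these subfamilies of chromosome 13 at most 1 gene had a window.

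The distance to the nearest summit separated the genes further. From the start sites of the 47 genes without a window it ranged from 4.62 kb at Serpinb1c to 311.6 kb at Serpinb3c, with a median of 66.1 kb, and 15 lay beyond 100 kb. Over the 59 Serpin genes the median was 50.5 kb, against 0.382 kb over all protein-coding genes, and 31 Serpin genes (52.5%) lay beyond 50 kb against 21.8% of all genes. No window lay within 50 kb of the gene for 29 Serpin genes (49.2%) against 20.0% of all genes. Among genes with a CpG-poor start, as defined further on, these gaps were smaller. The median distance was 53.9 kb for Serpin genes against 30 kb, and 50.9% against 39.0% had no window within 50 kb. Clade B held both ends of the range, with Serpinb8 at 0.002 kb and Serpinb3c at 311.6 kb, and its median of 89 kb exceeded the 44.9 kb of clade A.

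**Figure D3:**
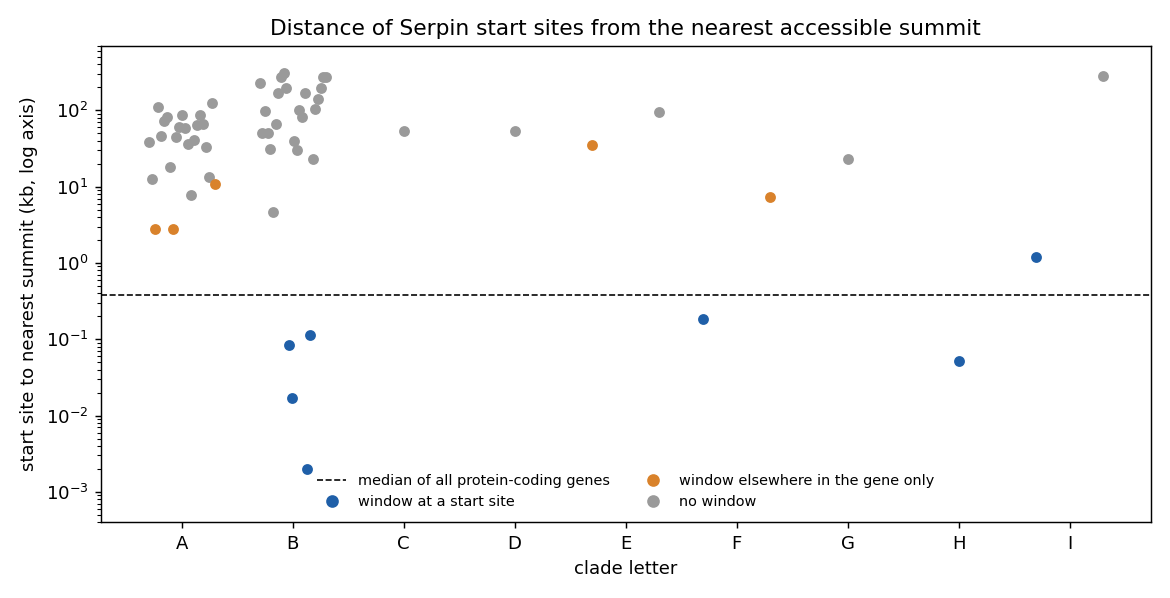
Distance in kb, on a log axis, from the start sites of each Serpin gene to the nearest summit, by clade letter, with the median of all protein-coding genes at 0.382 kb as a dashed line. Of the genes with a start window (blue) all but Serpini1 lie below the line. Genes without one lie above it by the rule of assignment, which places their nearest summit beyond 1 kb.

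Most Serpin genes stand in tandem. Serpin genes no more than 250 kb apart formed 4 clusters with 50 genes, and 9 genes stood alone. Of the clustered genes 5 had a window at a start (10.0%, exact 95% interval 3.33% to 21.8%), and of the single genes 2 had one, namely Serpinh1 and Serpini1 (22.2%, exact 95% interval 2.81% to 60%). The intervals overlap, and the difference was not tested. Over all protein-coding genes the share was 52.9%, and 18.0% over those with a CpG-poor start, as defined further on. Both intervals include the 18.0%, and that of the single genes also includes the 52.9%. A CpG-rich start was found for 1 clustered and 1 single gene.

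The chromosome 1 cluster ran over 747.7 kb from Serpinb5 to Serpinb8, and its 11 genes held no other protein-coding gene between them. Its windows lay at the ends, with Serpinb5 on one side and Serpinb8 on the other. The stretch of 705.6 kb between the windows at these ends held 9 whole Serpin genes and no window. Within such a stretch the distance to the nearest summit follows from position alone. It was 50.5 kb at Serpinb12, 97.1 kb at Serpinb13, 167.9 kb at Serpinb3a, 199.6 kb at Serpinb3d and 311.6 kb at Serpinb3c. On the far side it was 228.1 kb at Serpinb11, 167.3 kb at Serpinb7 and 66.1 kb at Serpinb2. The cluster had 0.802 windows per 100 kb. The stretch of equal length before it had 3.88, and the 4 genes there (Phlpp1, Bcl2, Kdsr and Vps4b) all had a start window, whereas the equal stretch after it held 0 windows and 0 protein-coding genes. Over the ungapped genome there were 1.96 per 100 kb.

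The chromosome 12 cluster, 797.7 kb from Serpina10 to Serpina3n, held 22 genes of clade A, none of them with a window at a start. The exact 95% upper limit was 15.4%, against 52.9% of all protein-coding genes and 18.0% of those with a CpG-poor start. No gene of this cluster had a CpG-rich start. Of the 9 windows in the cluster 3 belonged to Serpina1f, Serpina9 and Serpina12. Another 2 lay in Gm46, which RefSeq names Serpina16 and which the symbol rule leaves out, also away from its start. The remaining 4 lay between genes, among them a pair of overlapping windows (from chr12:105511075-105511574) at 7.89 kb from the nearest start of Serpina3i. The longest stretch without a window, 284.9 kb, held the alpha 1-antitrypsin genes Serpina1b, Serpina1d, Serpina1a, Serpina1c and Serpina1e. The cluster had 1.13 windows per 100 kb against 2.01 and 3.76 in the flanks of equal length.

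The chromosome 13 cluster ran over 1161 kb from Serpinb1a to Serpinb6a with 15 Serpin genes, of which Serpinb9 and Serpinb6a had a start window. This was 13.3% (exact 95% interval 1.66% to 40.5%), against 52.9% of all protein-coding genes and 18.0% of those with a CpG-poor start. The 9 windows of the cluster included the 4 of Serpinb6a at one end. The longest stretch without a window was 709.3 kb and held 7 whole Serpin genes and Gm11397, which RefSeq names Serpinb9h. The 7 run from Serpinb1b through Serpinb9c, Serpinb9d, Serpinb9e, Serpinb9f and Serpinb9g to Serpinb6d. The cluster had 0.775 windows per 100 kb, against 3.62 and 2.84 in its flanks. The pair of Serpinf1 and Serpinf2 on chromosome 11 was different, with 2 windows in 29.8 kb (6.71 per 100 kb), 6.71 before it and 20.1 after it, in a stretch that holds the start of Wdr81.

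**Figure D4:**
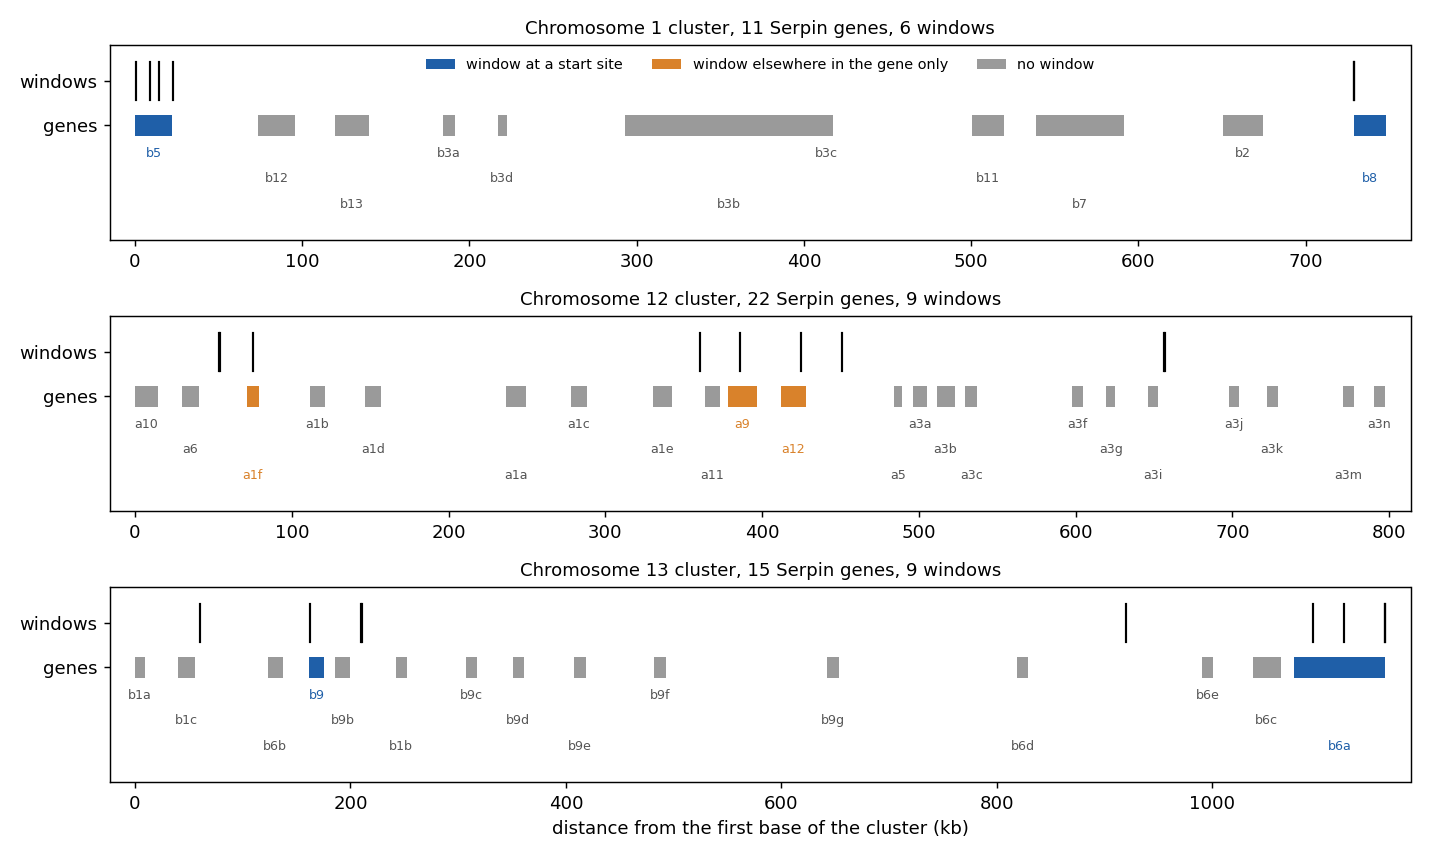
Maps of the 3 large Serpin clusters, with genes as bars (symbols without Serpin) and windows as ticks, by distance in kb from the first base of each cluster. Blue genes have a window at a start, orange genes elsewhere only and grey genes none, and the longest stretches between ticks, which stand at the summits, measure 706.1 kb, 285.4 kb and 709.8 kb from top to bottom.

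Start sites rich in CpG, the dinucleotide that marks most broadly active promoters, were rare among Serpin genes. A start was called CpG-rich if the 500 bp around it had a GC content of at least 50% and an observed/expected CpG ratio of at least 0.6, taking the start with the most CpG of each gene. Only Serpinb6a (56 CpG, ratio 1.01) and Serpine2 (65 CpG, ratio 0.91) met this, 3.39% of the Serpin genes against 53.7% of all genes. The median number of CpG was 5 for Serpin genes and 29 for all genes. Of all genes with a CpG-rich start 83.0% had a window at a start, and of those with a CpG-poor start 18.0%. Of the 57 Serpin genes with a CpG-poor start 6 had one (10.5%, exact 95% interval 3.96% to 21.5%), an interval that includes the 18.0%. The low share over the 59 Serpin genes went along with few CpG-rich starts, and whether these account for it was not tested. Within the CpG-poor class the Serpin genes were also lower on other measures. Any window was found for 17.5% (exact 95% interval 8.75% to 29.9%) against 25.5% of all genes. The mean number of windows per 10 kb was 0.164 against 0.482, and with all gene lengths added up 0.139 against 0.203.

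Single members did not follow this division. Serpine2, with the most CpG of all Serpin starts, had no start window, and its nearest summit was 35.4 kb away. Serpinh1 (27 CpG, ratio 0.54) and Serpini1 (23 CpG, ratio 0.58) fell just short of the limit and had one. Serpinb5, Serpinb9 and Serpinf1 had one with 11, 11 and 10 CpG, while Serpina3a (18 CpG, ratio 0.56) had none. At Serpinb8 the start with the most CpG had 8, and the window at its outermost start held 6.

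**Figure D5:**
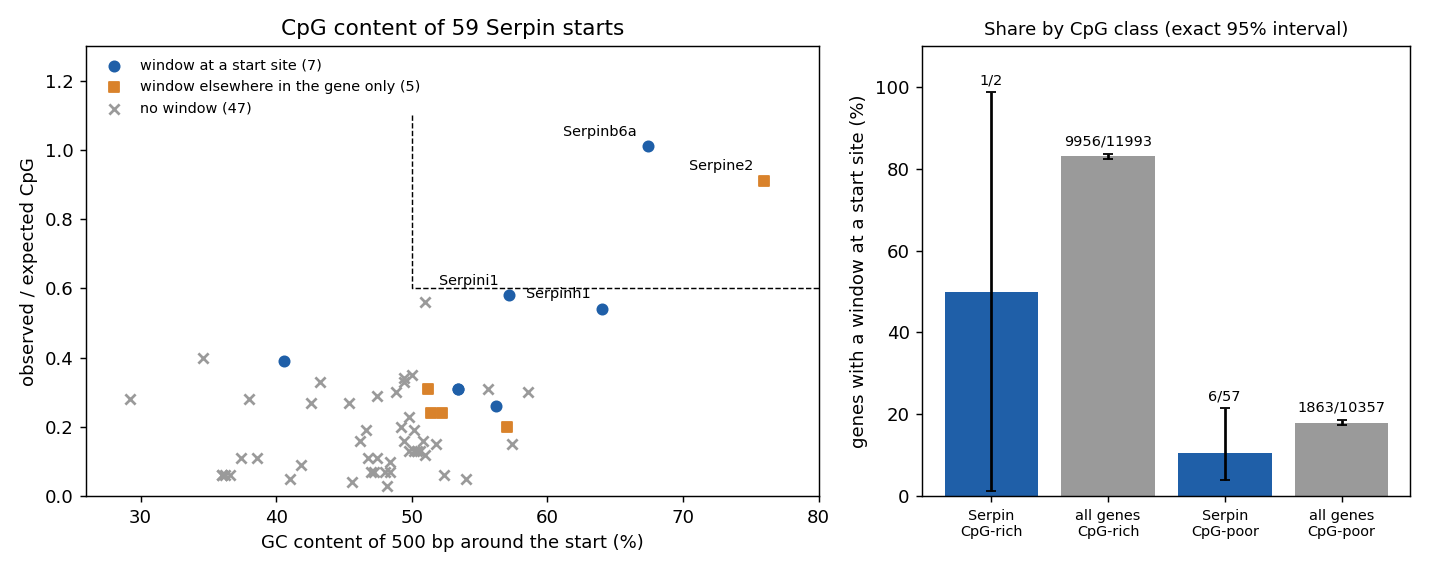
Left, GC content (%) and observed/expected CpG ratio of the 500 bp around the start with the most CpG in each of the 59 Serpin genes, with the CpG-rich area inside the dashed lines holding Serpinb6a and Serpine2. Right, percentage of genes with a window at a start in each CpG class (bars, exact 95% intervals, genes with a window over genes in all), where the CpG-poor bars stand at 10.5% for Serpin genes and 18.0% for all genes.

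Tandem paralogs share sequence, and the authors kept uniquely mapped reads, so the share of 50-base words within 1 kb of each gene's starts that occur once in the genome was counted. For the 7 genes with a start window it was 96.9% to 100%. For the 52 without, the median was 96.7%, and 45 had at least 80%. The lowest were Serpinb9f (51.4%), Serpina1d (53.9%), Serpina1c (59.8%), Serpinb9e (62.6%), Serpina1a and Serpina1e (65.9% each) and Serpina1b (70.9%). Single-copy starts such as those of Serpinb12, Serpinb11, Serpinb7, Serpinc1 and Serpina10 were at 100% and had no window. For the genes with low shares, loss of reads through mapping and a lack of accessibility cannot be told apart.

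The windows were searched on both strands for 13 short motifs, of which no word contains another. At starts of any protein-coding gene, 13 Serpin windows (the 12 above and the Nqo2 window) were set beside all 19661 windows of that class. The ETS word CCGGAA was in 7 (53.8%, against 29.8% of all), in windows of Serpinb5, Serpinb6a, Serpinb8 and Serpinh1. Every Serpinb6a window was among them, and each of those also lay within 1 kb of a start of another gene. The RUNX word TGTGGT was in 5 (38.5%, against 19.7%), in Serpinb5, Serpinb9, Serpinf1 and Serpini1. The AP-1 word TGANTCA was in 3 (23.1%, against 8.56%), of Serpinb5, Serpinb8 and Serpinf1, as visible in the printed starts of the former pair. The printed start of Serpinb2, a gene without a window, also carries an AP-1 word. The NFI word TTGGCA was in 5 (38.5%, against 19.9%), of Serpinb5, Serpinb8 and Serpinb6a, the last in the Nqo2 window only.

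Other words differed less from all windows. The HIF core, counted as ACGTG or GCGTG, was in 9 (69.2%, against 75.2%), the SP/KLF word GGGCGG in 8 (61.5%, against 67.3%), the Snail and Zeb E-box CAGGTG in 5 (38.5%, against 34.5%), the TATA box TATAAA in 1 (7.69%, against 8.20%), and the TEAD word GGAATG and the heat shock element GAANNTTC in 2 each (15.4%, against 19.2% and 8.99%). The CRE word TGACGTCA (2.69% of all), the C/EBP word TTGCGCAA (0.346%) and the GATA word AGATAA (8.71%) were in none of the 13. Serpinb6a carried 4 ETS and 4 SP/KLF words in the window that spans its outermost start, and in the printed stretch a palindrome counts as an ETS word on each strand. The Serpin windows had fewer CpG, with a median of 10 against 33, and the ETS, SP/KLF, HIF, CRE and C/EBP words contain CpG. The RUNX, AP-1 and NFI words contain none. Over all windows away from starts, with a median of 7 CpG, they were in 32.6%, 18.9% and 41.8%. The windows compared at starts were not matched for CpG. Overlapping windows of 1 gene share matches, so these counts are descriptions of a few promoters and were not tested.

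In the 6 Serpin windows away from starts, the NFI word was in 4 (66.7%, against 41.8% of 30339 such windows). The HIF core was in 3, of Serpina12, Serpine2 and Serpinf2 (50.0%, against 48.0%), with 4 matches in the Serpina12 window. The TATA box was also in 3 (50.0%, against 17.4%), the heat shock element, the TEAD, GATA and RUNX words in 2 each (33.3%, against 12.3%, 28.4%, 16.7% and 32.6%), and the CRE word and the E-box in 1 each (16.7%, against 0.765% and 38.5%). The AP-1, ETS, SP/KLF and C/EBP words were in none of them, against 18.9%, 10.5%, 17.7% and 0.181% of all. With 6 windows, shares move in large steps.

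Genes of the pathway around the serpins were listed to place them in the same pool. Of 36 genes of proteases that serpins inhibit, 15 had a window at a start (41.7%, exact 95% interval 25.5% to 59.2%), against 52.9% of all genes. Furin, the target of the Serpinb8 product, and the epithelial membrane proteases Prss8 and St14 had 3 each, St14 with 13 windows in all, and Casp1, the inflammasome protease gene, had 2. Plg, F2, F7 and F9, the genes of plasminogen, thrombin and 2 further clotting factors, had none.

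Of 16 genes of serpin receptors, cofactors and substrates, 10 had a start window (62.5%, exact 95% interval 35.4% to 84.8%). Lrp1, the endocytic receptor that clears serpin-protease complexes, and the heparan sulphate proteoglycan gene Sdc1 had 4 each, and the reelin receptor gene Lrp8 and the tissue factor gene F3 had 3 each. Lrp2, Vtn, Hspa5 and Col1a1 had no window. Col1a1, whose product HSP47 folds, lacked the window that Serpinh1 had. Of 19 genes of other protease inhibitors, 12 had a start window (63.2%, exact 95% interval 38.4% to 83.7%), led by the Kunitz domain genes Aplp2 with 5, App with 4 and Spint2 with 3, and Spint1 with 2. Tfpi, Tfpi2, Csta1 and Itih2 had none. All 3 lists had a higher share than the Serpin genes. The proteases lay below the 52.9% of all genes and the other lists above it, but each interval included that value. The lists also held more CpG-rich starts than the 3.39% of Serpin genes. These made up 19.4% of the proteases, 68.8% of the receptors, cofactors and substrates, and 36.8% of the other inhibitors.

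Entries named Serpin that are not protein-coding numbered 7 in the annotation (5 pseudogenes, the polymorphic pseudogene Serpinb10-ps and the processed transcript Serpina3h), and none had a window. Gm11397 had none either, at 0.343 Mb from the nearest summit.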

How the data were processed

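Open chromatin was measured by single-cell ATAC in 960 wells. Per the study's methods, the authors mapped reads to mm9 (hg19 is also named in the submitters' notes) with Bowtie2 2.1.0, kept uniquely mapped reads, removed duplicates (Picard 1.79) and mitochondrial reads, called summits with MACS2 on pooled cells and kept the windows of lowest q-value. The deposited values are window positions alone, in no unit of signal, with no counts, scores or q-values, so depth and precision are unknown. The version of MACS2 is not given in the sources used here, and neither is whether the pool included wells stained for CD45.

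From these positions, windows were assigned to GENCODE M1 genes (22350 protein-coding, 70018 start sites) by overlap of at least 1 base, with Python 3.11.15, numpy 2.4.6 and scipy 1.17.1, which gave exact (Clopper-Pearson) 95% intervals. The assignment was tested on simulated windows. Sequences came from the mm9 reference. No test between groups was run. Named were all Serpin genes described, and from each of 3 partner lists up to 4 members with the most start windows and the first 4 without any window. All 71 partner genes matched, Csta1 as Csta. 1 further gene that meets the symbol rule is not reported here and was left out of all Serpin counts. The members and lists were chosen with earlier results of these data known. Alternatives varied the reach, the start sites, the overlap, the cluster gap, the CpG limits and the windows used. Word length and the genes RefSeq names Serpin were added after the data were seen.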

Additional observations from a re-analysis of the deposited data

How the results depend on the processing

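Of 66 alternatives computed for 13 results, 56 changed the value by at most 1.5 times and 10 by more. With a reach of 10 kb from a start site, 12 of 59 Serpin genes counted in place of 7. Those added were Serpina12, Serpina1f, Serpina3i, Serpinb1c and Serpinf2, and clade A went from 0 to 3. Over all 22350 protein-coding genes the count at this reach was 14041 in place of 11819. With windows of called peaks that kept 2 or more windows alone, a stricter set by construction, 3 of 59 Serpin genes remained at starts. The same 3 were left with any window (Serpinb5, Serpinb6a and Serpinb8), with 6 Serpin windows. Of all 22350 protein-coding genes 4938 remained at starts in place of 11819. The 3 partner lists, of 36, 16 and 19 genes, then had 5 genes each. A reach of 500 bp, or the summit itself within 1 kb, removed Serpini1, and the outermost start alone removed Serpinb9 and Serpinf1. Adding the 2 genes that RefSeq names Serpin, chosen after seeing the data, left 7 genes at starts. With Serpin genes up to 1 Mb apart joined into clusters, 1 single gene in place of 2 had a start window, among 7 single genes in place of 9. No paired analysis was possible because the list comes from a pool of cells and has no column per sample. For the same reason no replicate could be left out. Without scores or read depth, a weakly accessible Serpin start cannot be told from a closed one.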
